A study of Mus musculus with 6 samples.

Results

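The clustered protocadherins were examined in day 2 epiblast-like cells (EpiLCs), mouse embryonic stem cells taken from the naive state toward the state of the early post-implantation epiblast. Members were all gene symbols that begin with Pcdha, Pcdhb or Pcdhg, with 1 entry per symbol (the one with most reads). This gave 58 of the 24288 symbols in the table, namely 14 alpha, 22 beta and 22 gamma genes. The wild-type (WT) libraries (n = 3) came from CCE, a 129/Sv//Ev embryonic stem cell line. The Smad2/3 double knockout (DKO) libraries (n = 3) came from the line KT15.1F6 of the same strain background, which carries the Smad2 tm1Rob allele on both chromosomes and a deletion of Smad3 exon 1 made with a CRISPR nickase. Smad2 and Smad3 transduce activin and Nodal signals. Both lines were grown for 48 hr in 12 ng/ml Fgf2, 20 ng/ml activin A and 1% KSR (a serum replacement), and the 3 libraries of a genotype were independent differentiations. Since each genotype was 1 line, and the DKO line 1 clone, other differences between the lines cannot be told apart from the knockout.

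Clustered protocadherins are cell surface proteins of the cadherin superfamily, best known from neurons. There, a choice of promoters gives each cell its own set of isoforms, which bind the same isoform on a facing membrane and so tell a neuron's own branches from those of its neighbours. In the alpha and gamma clusters each promoter precedes 1 large variable exon, which encodes the extracellular part and is spliced to small constant exons shared by the whole cluster, while each beta gene is a single exon. The C-type genes at the 3′ ends of the alpha and gamma clusters are used more evenly among neurons than the others. The promoters bind the insulator protein Ctcf, which with cohesin brings them to distant enhancers, and unused promoters carry DNA methylation.

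The 3 clusters follow each other on the plus strand of chromosome 18 (GRCm38, the mm10 assembly), with alpha from 36930285 to 37188897, beta from 37264998 to 37521419 and gamma from 37661775 to 37841873. Smad2 lies on the same chromosome. The alpha and gamma genes have 4 exons each, of which the last 3 are shared (2860 bp in alpha, 2119 bp in gamma), so their gene bodies are nested and end at the 3′ end of the cluster, within 1240 bp of each other in alpha and 10 bp in gamma. Beta genes have 1 exon, and none of their bodies overlap. Values are normalized reads, that is, reads over the gene body with its introns divided by 1 size factor per library and not scaled for length. A read of a gamma gene is therefore also counted for every gamma gene that begins upstream of it. In each of 204 comparisons of neighbouring nested bodies over the libraries, the longer body held at least as many reads as the shorter one. Opposite-strand genes are annotated within several intervals. Plus-strand genes are annotated in those of Pcdha7 (Gm36858), Pcdha11 (Gm18150), Pcdha12 (Gm19035), Pcdhga5 (Gm24401) and Pcdhgc5 (Gm38182). Reads of these plus-strand genes cannot be told apart from those of the members. The entry Gm37013, which spans from Pcdha4 to the end of the gamma cluster, held 2031 to 2632 normalized reads, although the minus-strand gene Taf7 wholly inside it held 2.72 to 3.20 times as many, so the reads of Taf7 were not counted for the plus strand.

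Library depth ranged from 57644143 to 63046034 reads over 1 entry per gene. Smad3 had 839 ± 37.0 normalized reads in the WT libraries against 23.6 ± 6.16 in the DKO libraries (mean ± SD, n = 3 each), and its log2 fold change was -5.12 ± 0.13 (± SE, limma). Smad2 had 4520 ± 86.3 against 5062 ± 109. These reads cover the whole Smad2 gene, so they check the tm1Rob allele in neither direction. All 9 EpiLC markers (Pou5f1, Otx2, Fgf5 and others) were expressed, with summed levels of 137346 to 140080 normalized reads in WT and 128663 to 130273 in DKO, and among them Sox2 was called higher and Fgf5 and Pou3f1 lower. Genes were called changed where the limma fit over all genes gave a Benjamini-Hochberg adjusted p under 0.05 together with a change of over 1.5-fold. In bulk samples, fewer cells that express a gene and less RNA per cell cannot be told apart.

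The alpha cluster was expressed at a low level in WT EpiLCs and at a lower level still in DKO EpiLCs. All 14 alpha genes were called lower, where 8.04% of the 17038 genes tested were called lower and 15.4% were called in either direction. Because the 14 bodies are nested and share most of their reads, this is close to a single measurement and not 14 of them. The longest body, Pcdha1, contains the others and held 54.3, 38.1 and 52.3 normalized reads in the WT libraries and 14.0, 21.01 and 22.8 in the DKO libraries. The groups did not overlap, and the WT library of replicate 2 lay closest to DKO. The log2 fold change was -1.29 ± 0.22 (SE, limma, adjusted p = 1.95e-05). Fold changes are given on a log2(value + 1) scale, and for genes with few reads they come out too small. The shortest body, Pcdhac2, the C-type gene nearest to the constant exons, held 33.3, 18.2 and 35.2 normalized reads in WT and 8.61, 14.7 and 15.6 in DKO. Its log2 fold change was -1.09 ± 0.29 (limma, adjusted p = 0.00227). The other C-type gene, Pcdhac1, held 34.9, 19.3 and 35.2 normalized reads in WT and 10.8, 14.7 and 15.6 in DKO, and its log2 fold change was -1.04 ± 0.27 (limma, adjusted p = 0.00184). The body of Pcdhac1 contains that of Pcdhac2, so it is not a separate measurement. Upstream of Pcdhac2 it held only 3, 2 and 0 reads in WT and 4, 0 and 0 in DKO. Both bodies kept the order of the groups seen for the longest body, with the lowest WT library near the highest DKO library.

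The bodies of the other 11 alpha genes lie between the longest and the shortest in the nested series. Their log2 fold changes ranged from -1.26 (Pcdha6) to -1.0045 (Pcdha12), and in none did the WT and DKO libraries overlap. With DKO lower, that held for 29.3% of all genes tested, and these 11 bodies again share most of their reads. Subtracting from each body the next body downstream gives the reads of a member's own interval, that is, its variable exon and the intron after it. Of the alpha reads in WT, 58.8 ± 10.0% lay in the last interval, from the start of Pcdhac2 through the constant exons, and 66.6 ± 4.45% did so in DKO. The last interval held 28.9 ± 9.31 normalized reads in WT and 12.96 ± 3.79 in DKO. The 13 intervals upstream of it together held 19.3 ± 2.01 in WT and 6.31 ± 0.94 in DKO, again without overlap. Within these 13, no library held more than 14 reads in any interval. Of these 13 intervals, those with the highest WT means were Pcdha7 (8, 14 and 10 reads in WT against 2, 4 and 8 in DKO) and Pcdha6 (4, 8 and 6 against 2, 0 and 0). The groups of Pcdha7 met at 8 reads. Low values were mostly even numbers (72.3% of all values from 1 to 20 reads), as mates counted apart would give. Of the 84 alpha values of any size, which share reads, 59 were even, among them all 42 in DKO. Counting error may therefore be larger than the read numbers show. With the reads halved, edgeR still called 14 of 14 alpha genes lower.

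**Figure D1:**
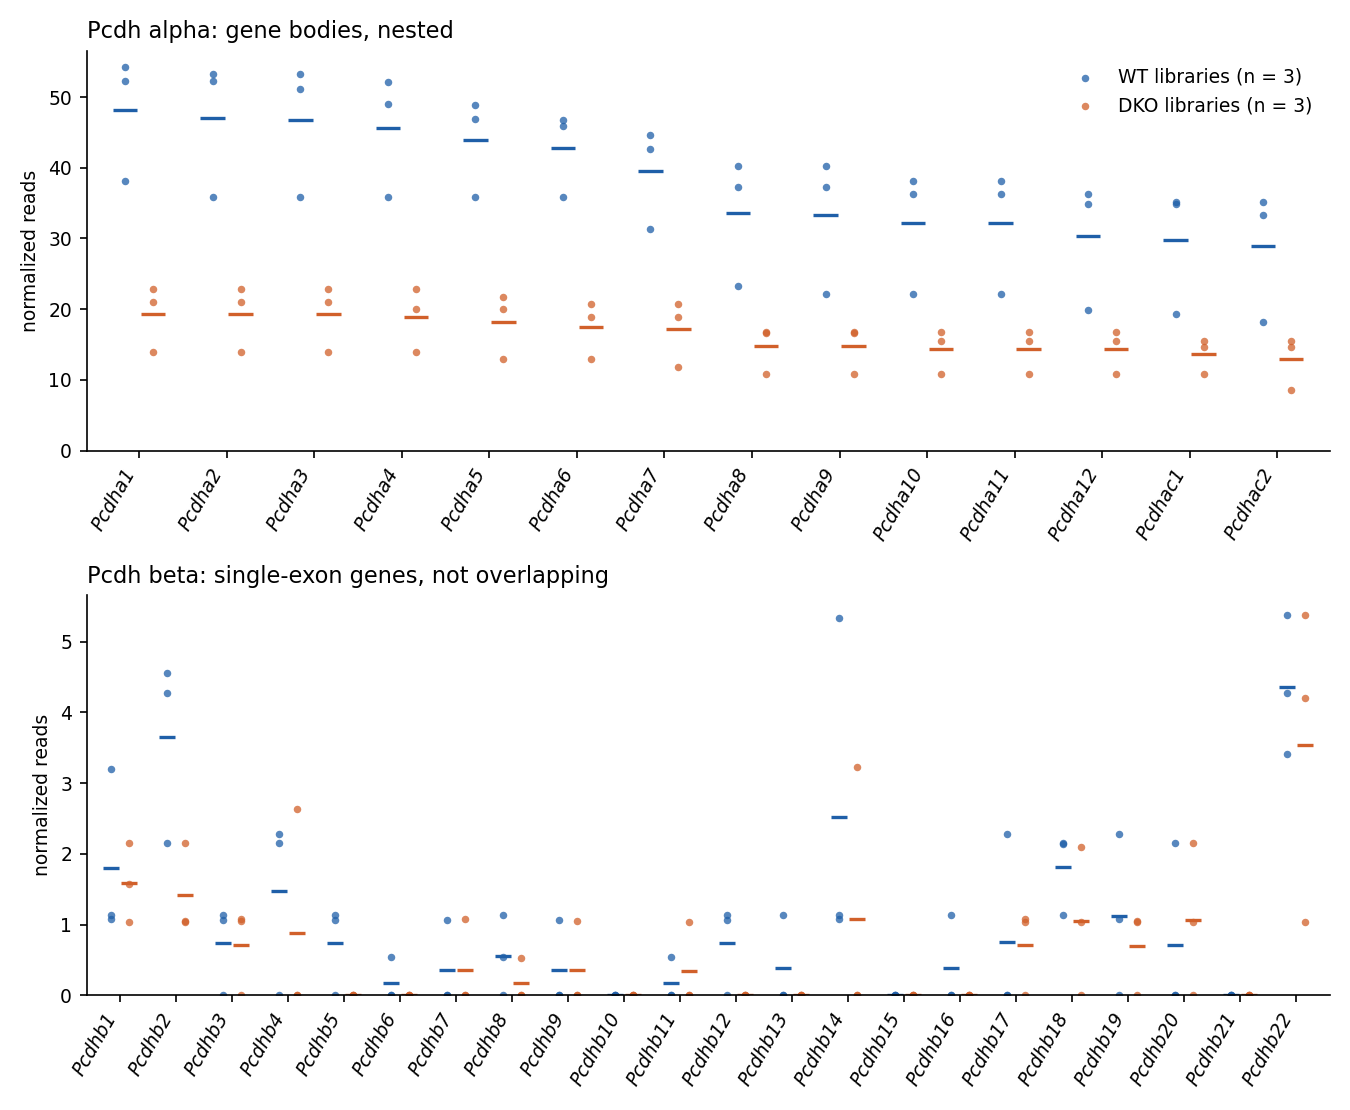
Normalized reads (y axis, linear) of the 14 alpha genes (upper plot) and the 22 beta genes (lower plot) in order along the chromosome. Dots are libraries (WT and DKO, n = 3 each) and bars are group means. Each alpha gene lies lower in all DKO libraries than in all WT libraries, with shared reads between neighbours, while the beta genes lie near 0 in both genotypes.

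The beta cluster was close to silent in both genotypes. None of the 22 beta genes reached the expression filter, so none was tested. No library held more than 10 reads of any beta gene, 3 genes (Pcdhb10, Pcdhb15 and Pcdhb21) had no read at all, and 13 had 3 reads or fewer in every library, the limit that a count of 0 allows. The highest was Pcdhb22, the last gene of the cluster, with 10, 6 and 8 reads in WT and 10, 8 and 2 in DKO. Pcdhb2 held 4, 8 and 8 reads in WT and 4, 2 and 2 in DKO. Pcdhb14 held 2, 2 and 10 reads against 6, 0 and 0. The groups of all 3 genes overlapped. Pcdhb1 held 1.80 ± 1.21 normalized reads in WT against 1.59 ± 0.56 in DKO, and Pcdhb18 held 1.81 ± 0.58 and 1.05 ± 1.05. Summed over the cluster, there were 35, 44 and 46 reads in the WT libraries and 34, 29 and 16 in the DKO libraries, or 22.8 ± 3.46 and 13.9 ± 5.13 normalized reads. The ratio of DKO to WT, 0.612, moved between 0.516 and 0.736 when 1 library was left out. Differences between single beta genes were not detectable at this depth.

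The gamma cluster carried most of the clustered protocadherin reads, and over whole gene bodies none of its 22 genes was called changed. At an unadjusted p under 0.05 there were 14 genes, where 53.4% of all genes tested passed even by adjusted p. Both edgeR and DESeq2 called 0 gamma genes. The longest body, Pcdhga1, held 2183, 2135 and 2282 normalized reads in WT and 1725, 1853 and 1852 in DKO. The groups did not overlap, and the log2 fold change was -0.28 ± 0.04 (limma, adjusted p = 4.76e-07), well under the 1.5-fold threshold. By adjusted p at any fold, 13 gamma genes were lower, where 26.5% of all genes tested were lower by that rule. In 12 gamma genes every DKO library lay below every WT library, which held for 29.3% of the genes tested. Both sets of genes form an unbroken run from the 5′ end of the cluster, and the difference between genotypes became smaller toward the 3′ end as the bodies became shorter. Each gamma body contains those downstream of it, so these genes share most of their reads. The counts are therefore not of separate measurements, and nesting by itself favours an unbroken run.

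At the 3′ end, the bodies of the C-type genes showed no such difference. Pcdhgc3 held 1174, 1117 and 1209 normalized reads in WT and 1112, 1218 and 1146 in DKO (log2 fold change -0.0099 ± 0.044). Pcdhgc4 held 1063, 1004 and 1088 against 1022, 1115 and 1030 (0.0054 ± 0.046). Pcdhgc5, whose interval holds the constant exons that every gamma transcript shares, held 1056, 993 and 1075 against 1011, 1106 and 1016 (0.0045 ± 0.046). The groups overlapped in all 3 genes, and the limma adjusted p ranged from 0.867 to 0.944. In WT, the own interval made up 9.84% of the body of Pcdhgc3 and 1.00% of that of Pcdhgc4. The 3 results are thus close to a single measurement, mostly of the last interval, and are not levels of single C-type genes. Per kb of gene body, the level of Pcdhgc5 was 46.6 normalized reads in WT and 46.8 in DKO, against 0.657 and 0.295 for Pcdhac2 and 1.42 and 1.15 for Pcdhb22, the last of which has no intron.

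**Figure D2:**
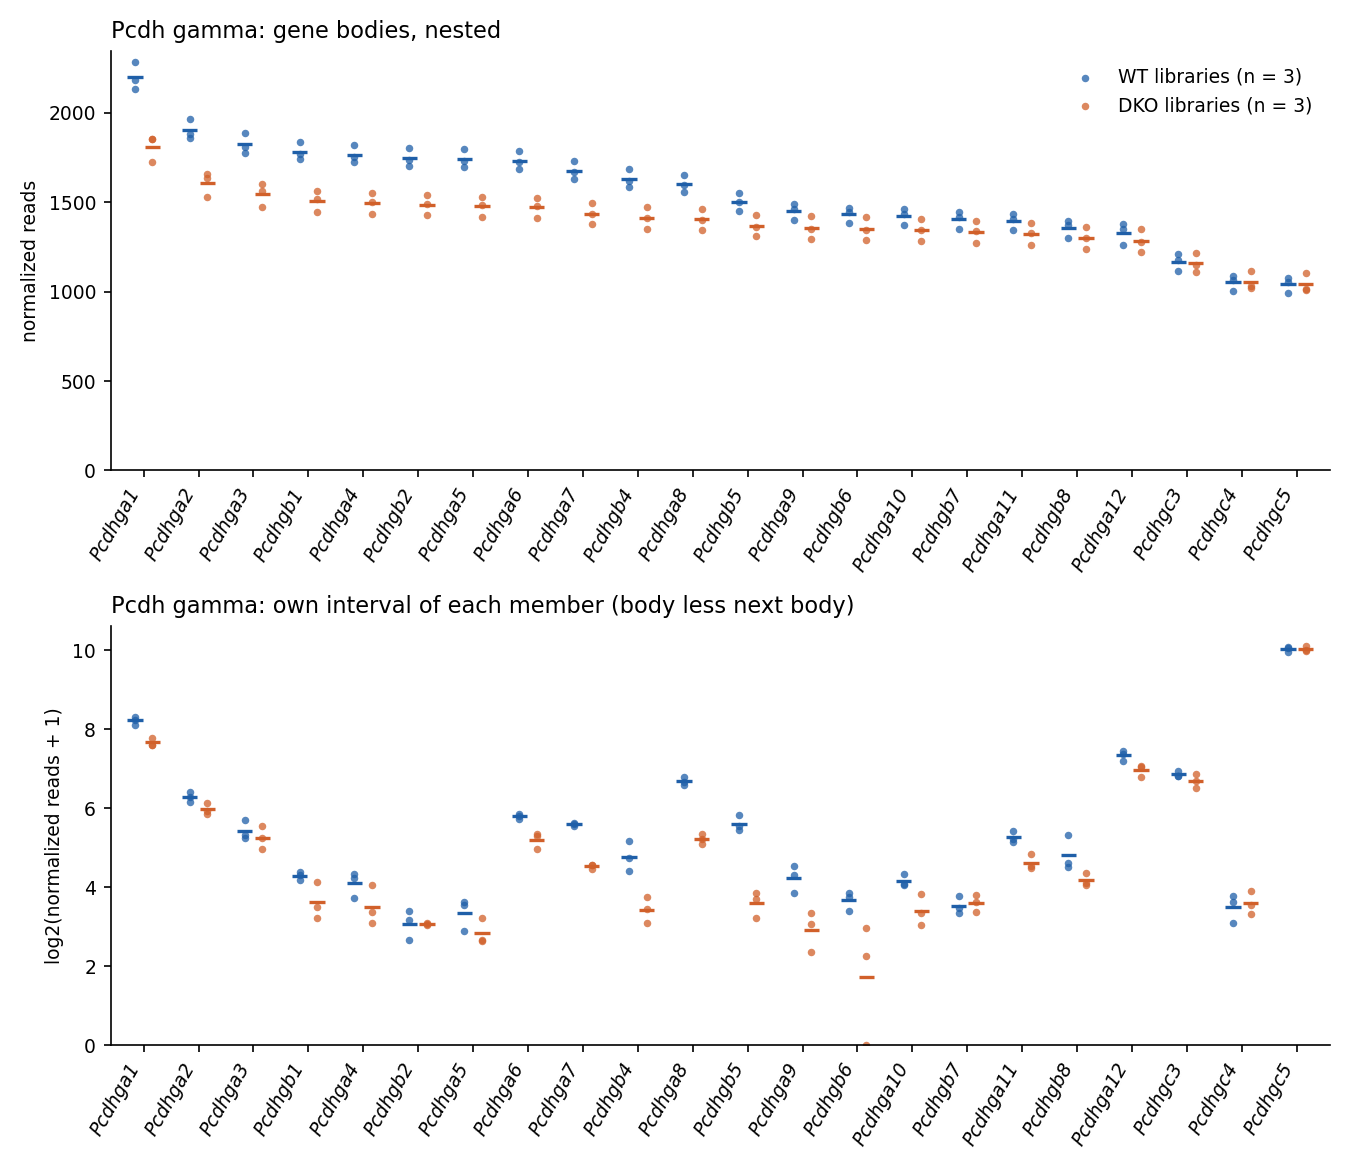
The 22 gamma genes in order along the chromosome. The upper plot gives normalized reads of the nested gene bodies (linear axis), and the lower plot gives reads of each member's own interval as log2(normalized reads + 1). Dots are libraries (n = 3 per genotype) and bars are group means. The bodies converge toward Pcdhgc5, while the intervals from Pcdhga7 to Pcdhgb6 lie apart between the genotypes.

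Taking the nested bodies apart showed where along the gamma cluster the difference lay. In a limma fit over all genes in which each nested body was replaced by its own interval, a fit added after the data were seen, 10 of the 22 gamma intervals were called lower and 0 higher, where 8.03% of the 17025 features tested were called lower. These were the intervals of Pcdhga6, Pcdhga7, Pcdhgb4, Pcdhga8, Pcdhgb5, Pcdhga9, Pcdhgb6, Pcdhga10, Pcdhga11 and Pcdhgb8, all A-type or B-type genes. Another gene is annotated on the minus strand in 13 gamma intervals, of which 8 were called lower. Of the 9 gamma intervals without such a gene, 2 were called lower. Whether these annotations bear on the calls was not tested. In 14 of the 22 intervals each DKO library lay below each WT library, which held for 29.3% of the genes tested.

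The interval of Pcdhga8 had the most reads among those called. It held 94.6, 110 and 101 normalized reads in WT and 36.6, 33.1 and 39.9 in DKO. The groups lay far apart, and the log2 fold change was -1.45 ± 0.15 (limma, adjusted p = 4.54e-09). The largest change was that of its neighbour Pcdhgb5, with 42.4, 45.5 and 56.0 normalized reads in WT and 13.5, 8.41 and 11.9 in DKO, where the log2 fold change reached -2.01 ± 0.24 (limma, adjusted p = 6.18e-08). Mean DKO reads there were 0.235 of the WT mean. Pcdhga7 held 48.4, 46.1 and 47.5 against 22.6, 21.01 and 22.8, a change of -1.06 ± 0.19 (limma, adjusted p = 3.41e-05). Replicates within each genotype were close to each other in this interval. Pcdhgb4 held 20.4, 25.6 and 35.2 in WT and 7.53, 9.98 and 12.4 in DKO (log2 fold change -1.34 ± 0.28). Pcdhga9 held 13.4, 18.8 and 22.4 against 9.15, 7.35 and 4.15 (-1.31 ± 0.33). In Pcdhgb6 the WT libraries held 13.4, 12.5 and 9.60 normalized reads and the DKO libraries 3.77, 6.83 and 0 (-1.93 ± 0.54). These 6 neighbouring intervals, from Pcdhga7 to Pcdhgb6, were called lower in each of 11 alternative fits of the intervals, which included the omission of each library in turn.

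The other 4 calls lay nearer to the threshold. The log2 fold change was -0.59 ± 0.17 for Pcdhga6, -0.76 ± 0.30 for Pcdhga10, -0.65 ± 0.20 for Pcdhga11 and -0.64 ± 0.25 for Pcdhgb8. The call of Pcdhga6 was lost without WT replicate 1 or DKO replicate 2, and that of Pcdhga11 without WT replicate 2. The call of Pcdhgb8 was lost without WT replicate 2, DKO replicate 1 or DKO replicate 2. DESeq2 called 8 gamma intervals and left out Pcdhga10 and Pcdhgb8, and a pseudocount of 10 left out all 4 of these genes. Pcdhga10 was called in 4 of the 11 alternatives, and its call was lost without any single WT replicate and without DKO replicate 1 or 3. Pcdhga4 (-0.59 ± 0.31, limma, adjusted p = 0.116) and Pcdhgb1 (-0.67 ± 0.29, limma, adjusted p = 0.0558) were past 1.5-fold but not called on adjusted p, and gained a call without DKO replicate 2 and without DKO replicate 3, respectively. Pcdhga1 gained one without DKO replicate 3 or WT replicate 2.

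Among intervals that were not called, that of Pcdhga1 at the 5′ end had 302, 274 and 317 normalized reads in WT and 194, 194 and 219 in DKO. It was the largest of the variable intervals, and its log2 fold change of -0.55 ± 0.08 (limma, adjusted p = 2.67e-06) fell just short of 1.5-fold. The 40.8 kb interval of Pcdhga12 held 175, 145 and 166 against 110, 130 and 133 (-0.38 ± 0.11, limma, adjusted p = 0.00394). Pcdhgb7, which lies among intervals called lower, held 10.2, 9.11 and 12.8 in WT and 12.9, 9.46 and 11.4 in DKO, and its groups overlapped (0.07 ± 0.31). The variable intervals of the C-type genes held 111, 112 and 122 against 89.9, 103 and 116 for Pcdhgc3 (-0.16 ± 0.12), and 7.52, 11.4 and 12.8 against 10.8, 8.93 and 14.0 for Pcdhgc4 (0.09 ± 0.32), with overlap in both. The remaining intervals, of Pcdhga2, Pcdhga3, Pcdhgb1, Pcdhga4, Pcdhgb2 and Pcdhga5, had log2 fold changes from -0.67 to -0.01.

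**Figure D3:**
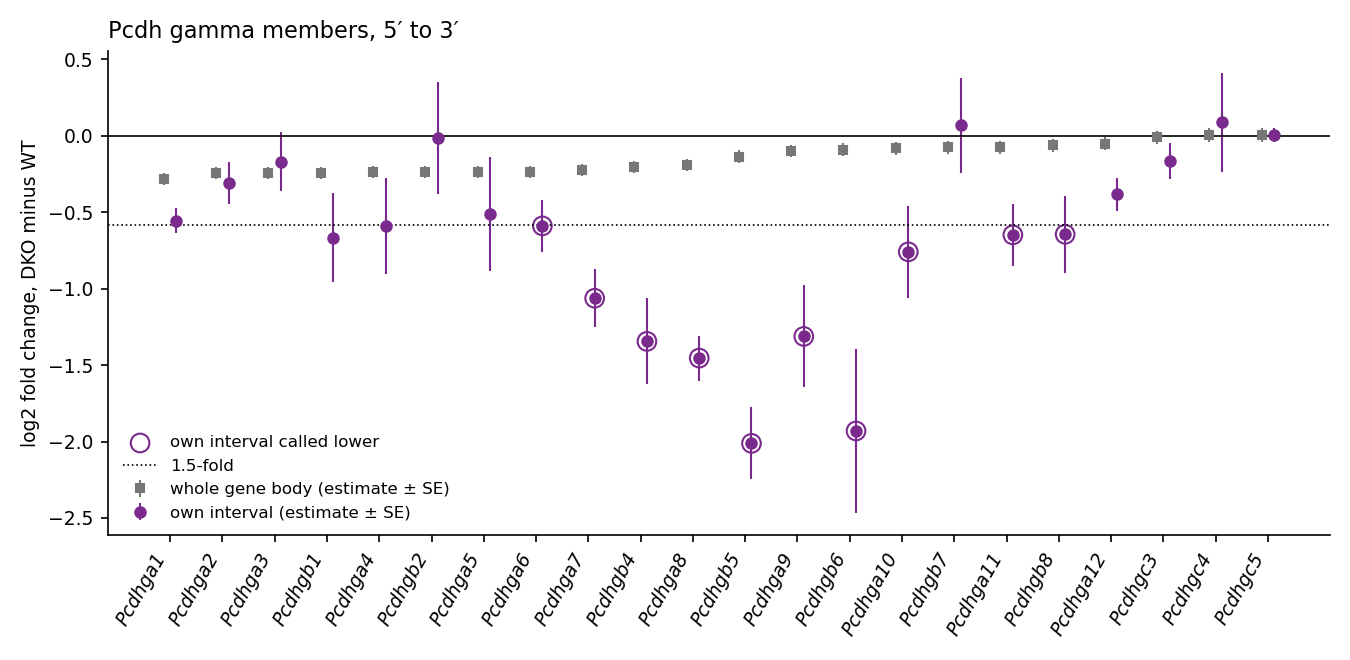
Log2 fold change (DKO minus WT, limma estimate ± SE, on the log2(value + 1) scale) of the 22 gamma genes, as whole nested bodies (squares) and as own intervals (circles, ringed where called lower). The dotted line marks a 1.5-fold decrease. Whole bodies stay between -0.28 and 0.01, while the intervals from Pcdhga7 to Pcdhgb6 lie between -2.01 and -1.06 and the last interval, Pcdhgc5, lies at 0.

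Summed by stretches chosen after the values were seen, and given without a test, the 7 intervals from Pcdhga1 to Pcdhga5 held 469 ± 25.1 normalized reads in WT against 338 ± 33.4 in DKO, with a DKO to WT ratio of 0.721. The 7 intervals from Pcdhga6 to Pcdhgb6 held 309 ± 17.5 and 127 ± 8.13, a ratio of 0.410. The 5 intervals from Pcdhga10 to Pcdhga12 held 255 ± 4.42 and 186 ± 14.6, a ratio of 0.729. The 2 intervals of Pcdhgc3 and Pcdhgc4 held 125 ± 8.27 and 114 ± 14.6, a ratio of 0.910. All intervals upstream of the last one together held 1159 ± 42.4 in WT against 765 ± 62.8 in DKO, a ratio of 0.660, while the last one stayed at 1041 ± 42.7 and 1045 ± 53.5. The last interval accordingly took 48.4%, 46.5% and 47.1% of the gamma reads in the WT libraries and 58.6%, 59.7% and 54.9% in the DKO libraries, without overlap. An exact permutation test of 3 against 3 libraries cannot go below p = 0.10, and none is given. An interval holds reads of introns too, and a transcript that starts at an upstream promoter crosses the intervals downstream of it, so these values are not isoform levels.

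Reads on the same strand between the genes did not follow the clusters. When the bodies of Pcdha4, the beta genes and Pcdhga1 were subtracted from the spanning entry Gm37013, 276 ± 15.96 normalized reads remained in the WT libraries against 287 ± 12.7 in the DKO libraries, and the groups overlapped. The 39 other genes within 500 kb of the clusters included Gm37013, Gm38666 and Gm38667. These entries span the gamma cluster and hold its reads, so they are not separate neighbours. Of the 39, 36 were tested, with a median log2 fold change of -0.06, against 0.00012 over all genes tested. Among these 36, 2 were called lower and 0 higher, where 8.04% of all genes tested were called lower. One was Gm6756, a transcribed pseudogene that ends 8.08 kb upstream of Pcdha1, whose reads cannot be told apart with certainty from those of its parent gene. It held 59.1, 48.9 and 57.6 normalized reads in WT and 1.08, 3.15 and 3.11 in DKO, and its log2 fold change was -4.09 ± 0.32 (limma, adjusted p = 2.53e-11). The other was Pcdh1, a protocadherin outside the clusters. Taf7, a subunit of the general transcription factor TFIID, which lies between beta and gamma, had a log2 fold change of -0.23 ± 0.03 and was not called.

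Of 12 protocadherins outside the clusters, 11 were tested, of which 3 were called lower and 1 higher. Over all genes tested, 8.04% were called lower and 15.4% in either direction. Pcdh8, known from the paraxial mesoderm, held 314, 289 and 288 normalized reads in WT and 80.2, 98.8 and 104 in DKO (log2 fold change -1.65 ± 0.10, limma, adjusted p = 2.20e-13). Pcdh18 held 212, 193 and 207 against 123, 130 and 103 (-0.78 ± 0.10). Pcdh1 held 3843, 3681 and 4112 against 2445, 2592 and 2509 (-0.62 ± 0.04), and its call was lost without WT replicate 3. Pcdh10 was called higher, with 43.0, 43.3 and 35.2 in WT and 136, 109 and 113 in DKO (1.54 ± 0.14, limma, adjusted p = 1.07e-09). The median log2 fold change of the 11 genes was -0.09. Members of the family outside the clusters thus moved in both directions. Among 16 cadherins, 15 were tested, with 5 called lower (Cdh2, Cdh3, Cdh7, Cdh8 and Cdh11) and 2 called higher (Cdh6 and Cdh13). The same shares over all genes apply to these counts.

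**Figure D4:**
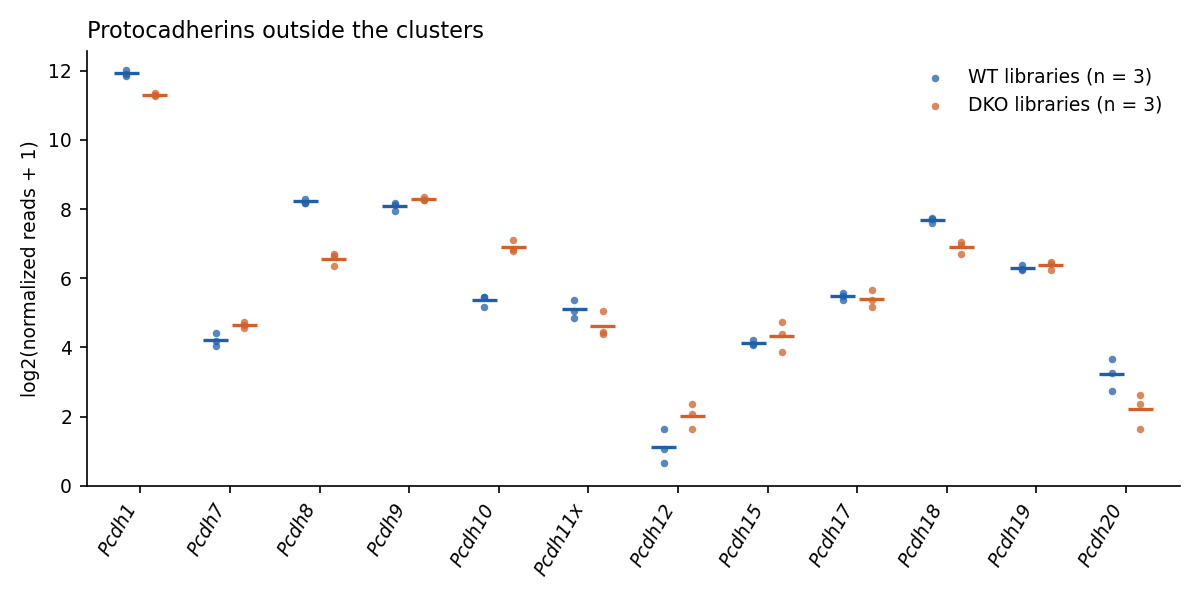
Log2(normalized reads + 1) of the 12 protocadherins outside the clusters. Dots are libraries (WT and DKO, n = 3 each) and bars are group means. Pcdh1, Pcdh8 and Pcdh18 were called lower and Pcdh10 higher, and Pcdh12 was not tested because of its low reads.

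Genes that act on the promoters of the clusters changed little. Of 19 such genes, all tested, 0 were called in either direction by limma, edgeR or DESeq2, where limma called 15.4% of all genes tested. An unadjusted p under 0.05 was reached by 14 of the 19. By adjusted p at any fold there were also 14, where 53.4% of all genes tested passed. Their log2 fold changes ranged from -0.24 to 0.18. Ctcf had 8634 ± 128 normalized reads in WT libraries against 8181 ± 18.9 in DKO libraries (log2 fold change -0.08 ± 0.02), and Rad21, a cohesin subunit, 5842 ± 55.7 and 6124 ± 108 (0.07 ± 0.03). Smchd1, which takes part in silencing of the clusters, had a log2 fold change of -0.15 ± 0.02 and the DNA methyltransferase Dnmt3b one of -0.11 ± 0.02. Among 17 partners of the proteins, such as the WAVE complex and the kinases that clustered protocadherins inhibit, 1 was called higher (Ptk2b, encoding Pyk2, 1.25 ± 0.05) and 0 lower.

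Markers of cell types that could contribute the reads were also measured. Of 16 neuron markers, 15 were tested, with 3 called lower (Rbfox3, Snap25 and Elavl3) and 2 higher (Nefm and Gap43), and their summed level was 7256 to 7341 normalized reads in WT and 6666 to 6948 in DKO. Of 10 neural progenitor markers, 7 were tested, with Sox1, Sox3 and Pax3 called lower and Pax6 higher, and the sum was 1569.7 to 1699 in WT and 1093 to 1206 in DKO. Of 11 fibroblast markers, 9 were tested, with Col1a2 and Dcn called lower, and the sum was 9694 to 10747 in WT and 6438 to 7275 in DKO, with Postn at 3 reads or fewer in every library. Of 11 extra-embryonic endoderm markers, 8 were tested, with Gata6, Cubn and Sparc called higher, and the sum was 3226 to 3390 in WT and 6149 to 6474 in DKO, with Ttr at 3 reads or fewer. The sums of the first 3 lists were lower in DKO and that of the last was higher. They rest on a few abundant genes, such as Fn1 (7738 normalized reads in WT and 5326 in DKO, not called). Nearly all of the extra-embryonic endoderm sum was Sparc (3134 in WT and 6071 in DKO). Over all genes tested, 8.04% were called lower and 15.4% in either direction. The median log2 fold change was -0.06 for the neuron, -0.53 for the neural progenitor, 0.11 for the fibroblast and 0.22 for the extra-embryonic endoderm markers. Their part in the results on the clusters was not tested.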

How the data were processed

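Ribosomal RNA-depleted RNA was sequenced paired-end over 75 cycles from stranded libraries (WT and DKO, n = 3 each). The authors removed ribosomal reads (bowtie2), aligned to mm10 (STAR), removed PCR duplicates (Samtools) and counted reads over refGene gene bodies. Versions, and whether counting used strand, are not given in the sources used here. The deposited values are a signal, namely reads divided by 1 size factor per library, and all columns of sample values were used (0 left out). The authors' comparison table (DESeq2 fold changes and p-values) was not used. Whole reads were recovered from the steps between values (100% whole, tolerance 0.01). The 138 rows without a symbol (0.517% of reads) were left out.

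The main test was limma 3.58.1 (R 4.3.3), two-sided, with a variance trend and a pseudocount of 1 on the log2 scale, over the 17038 genes that passed filterByExpr of edgeR 4.0.16. edgeR and DESeq2 1.42.0 on recovered reads, other pseudocounts and filters, TMM factors and the omission of each library were alternatives. On simulated reads for 17038 genes, limma recovered 91% of genes with a log2 change of 1 and 99% of those with 2, with 3 false calls. The changed genes were drawn at random and shared no reads, so these shares need not hold for nested bodies, intervals or members with few reads. Positions came from RefSeq (GRCm38.p6), and that of Pcdhgb8 from GENCODE M21. Reads carry no molecular identifiers, so errors describe the spread of reads and libraries and not of molecules.

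Members, gene lists and tests were chosen with earlier results of these data known. Named genes are the ends of the alpha and gamma series, the C-type genes, the 5 beta genes with the highest mean, called members, called genes of the supporting lists and of the 500 kb flanks, Ctcf, Rad21, Smchd1, Dnmt3b, Smad2 and Smad3. Other genes, and all intervals, were named after their values were seen. Deviations of same-numbered libraries correlated at 0.0088, -0.03 and 0.04 over 11930 genes, so replicate numbers were not taken as pairs. Counts of each pair of libraries within a genotype differed by 2.99 to 4.59 times the sampling variance.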

Additional observations from a re-analysis of the deposited data

How the results depend on the processing

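The 14 alpha calls were kept under all other settings, but a minimum mean of 50 normalized reads left 0 alpha genes to test. That filter gave 1588 calls over all genes in place of 2623, and dropping the fold threshold gave 9098. Without the fold threshold there were 13 gamma genes and 14 genes that act on the promoters. Testing all entries in place of 1 per gene gave 8 calls (4 lower and 4 higher) among 36 entries of protocadherins outside the clusters. A gene can have several entries, so these are not counts of genes. The gamma intervals and edgeR on halved reads were added after the data were seen, and a pseudocount of 10 left 6 of the 10 interval calls. Subtracting the last interval from the longest gamma body moved the DKO to WT ratio from 0.823 to 0.660, by construction. Leaving out 1 library gave 2529 to 2610 calls over all genes, 14 alpha genes, 0 gamma genes, 8 to 11 gamma intervals and 3 to 6 protocadherins outside the clusters. With a replicate block there were 2602 calls over all genes, 14 alpha genes, 0 gamma genes and 10 gamma intervals. The replicate numbers name libraries only, and no pairing is implied. Depth limits the beta genes, of which 19 were tested and 0 called without a filter on low values, and the 13 alpha intervals upstream of Pcdhac2, which held too few reads for a test.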
